A study of Homo sapiens with 40 samples.

Results

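The authors' deposited table for EndoC-βH3 cells held 51457 CTCF peaks. Of these, 1191 had their centre in an exon of a protein-coding gene and lay outside active chromatin. They were reached in steps. In all, 40396 peaks lay more than 2 kb from every protein-coding start site, 36039 of these also lay outside the deposited enhancers of either state, and 32429 also overlapped no H3K27ac peak. The centre of 1191 of these fell in an exon of the Ensembl canonical transcript of a protein-coding gene (GENCODE 44, hg38), in 1117 host genes. A further 13729 were intronic and 17509 intergenic, and these are the peaks they are compared with below. The rule used position, H3K27ac peaks and the deposited enhancers, and no CTCF value. The study defined those enhancers by H3K27ac together with H3K4me1, another histone mark.

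EndoC-βH3 is a human beta-cell line, labelled WT in every library, that carries hTERT and SV40 large T antigen flanked by loxP sites together with a tamoxifen-inducible Cre. Senescent cells had received 4-OHT (4-hydroxytamoxifen, which activates the Cre) for 3 weeks, at a concentration given as 1 mM in the labels but in μM in the study's methods, so that the immortalising genes were excised. Non-senescent cells were controls of the same line without senescence induction. CTCF ChIP-seq and ChIP-seq of H3K27ac, the acetylation found on active regulatory regions, each had 3 libraries per state, and the deposited tables give each peak's mean over the libraries and its fold change but no value per library, so the spread between libraries is seen only as a standard error. Whether the libraries came from separate cultures was not stated, so the p-values measure the spread between libraries, which may be technical.

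CTCF is a zinc-finger protein that binds a long, partly degenerate DNA motif and can halt cohesin as it extrudes chromatin loops, so that bound sites often mark loop anchors and insulated neighbourhoods. The orientation of the motif matters for which loops form. Methylation of a CpG within the motif can weaken binding at some sites. In a coding exon the bases of a site also spell part of a protein.

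The cell identity was checked on H3K27ac at promoters. All 8 beta-cell genes examined (INS, IAPP, PDX1, NKX6-1, NKX2-2, NEUROD1, ABCC8 and SLC30A8) had an H3K27ac peak within 2 kb of the start site, at mean counts of 204 to 13803. Of 10 genes of other cell types, 4 had one: CPA1, KRT19, GHRL and SST, at mean counts of 54.2 to 1498. GCG, PPY, PRSS1, PTPRC, PECAM1 and COL1A1 had none. What part the 4 may have in the CTCF results was not tested. No exonic CTCF peak overlapped any region of the deposited list of senescence-specific Rb binding. Of all 51457 CTCF peaks, which include the promoter and active peaks left out by the rule, 147 did. At so low a share few or no overlaps are expected in a set of this size, so the absence sets the exonic peaks apart in no way.

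Of the 17 gained and 58 lost exonic peaks described below, those of smallest p were examined for a CTCF motif, and the following sequences show the matches at 4 gained and 4 lost peaks. Matches at the lost peaks of SORBS3, SKOR1 and PRDM13 are not printed, so counts of CpG below hold for the printed sequences only. Each is 30 bases of hg38 written 5′ to 3′ along the motif, with the 19 bases of the match in capitals. The first 4 belong to gained peaks and the last 4 to lost peaks.
CDC6, chr17:40303169-40303198, plus strand: tgactGAGACACCAGAGGGCACCCttataa
RFWD3, chr16:74623424-74623453, minus strand: tcagtTGAACACAAGAGGGCACTGtagaac
ST7, chr7:117119621-117119650, minus strand: aacccCTCCCAGAAGGGGGCGCAAgtggct
MGLL, chr3:127691035-127691064, plus strand: ttctcCTGCCACCAGAGGTAGCTGtgctgc
ADAMTS10, chr19:8580878-8580907, minus strand: tgccaTGGCCACTAGGGGGCGCGCggcacc
EVX2, chr2:176079982-176080011, minus strand: tgccgCTGCCGCCAGGGGGCGCCCcggggc
MUC3A, chr7:100966432-100966461, plus strand: gtggcCGTCCACTGGAGGGCGCTGgtcggg
MYBL2, chr20:43692136-43692165, minus strand: ttgtcTGTCCTGCAGGGGGCAGCAgggggc
In the 4 printed gained matches, 1 (ST7) held a CpG. In the 4 printed lost matches, 3 held a CpG, with 2 each at ADAMTS10, EVX2 and MUC3A and 0 at MYBL2. Match scores, in bits of log-odds against the base frequencies of regions 10 kb away, ran from 16.1 at RFWD3 to 18.4 at CDC6 among the gained peaks and from 16.7 at PRDM13 to 24.5 at EVX2 among the 7 lost peaks named here. The match of MYBL2 crossed the start of the exon that holds the peak centre, and the other 7 printed matches lay wholly inside the exon.

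The question was whether CTCF at these exonic sites changed as the cells became senescent. A peak was called gained or lost where the adjusted p of the authors' deposited Wald test was under 0.2 and the fold change above 1.5. These are the thresholds of the study, which reported changes only at sites holding the CTCF motif. Here they were applied to every deposited peak, with or without a match, so the counts are not those of the study. An adjusted p was given for 921 of the 1191 exonic peaks, and for the other 270 it was missing. In this set 17 peaks were gained, or 1.85% of the 921, beside 2.99% of all CTCF peaks with an adjusted p. Losses were more frequent, with 58 peaks or 6.30%, beside 4.28% of all CTCF peaks. Under an adjusted p of 0.05, 9 were gained (0.977%) and 15 lost (1.63%), beside 1.18% and 1.54% of all CTCF peaks. A Wald test against a fold of 1.5, computed from the deposited values, left 0 gained and 0 lost exonic peaks after adjustment, and 5 and 10 at an unadjusted p under 0.05. Over all CTCF peaks that test left 0 gained and 17 lost (0.033%). By the study's thresholds the shares were 3.77% gained and 2.88% lost in introns, and 4.36% gained and 4.72% lost between genes. There were 3.41 losses for each gain among the exonic peaks, 0.762 among the intronic and 1.08 among the intergenic peaks.

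The median log2 fold change (senescent over non-senescent) of the 1191 peaks was -0.022, with quartiles of -0.32 and 0.23 and a median standard error of 0.29. The median was 0.067 in introns, 0.056 between genes and -0.012 over all CTCF peaks. Occupancy was alike in the classes, with a median mean count of 57.4 in exons, 56.1 in introns and 64.6 between genes. The called exonic peaks were of moderate strength: the median mean count was 95.9 for the gained and 57 for the lost peaks. Of the 298 peaks with the lowest mean counts (up to 20.7), 28 had an adjusted p, and 3 of these were lost. Of the 298 with the highest (from 164 up), 1 was gained and 2 were lost.

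**Figure D1:**
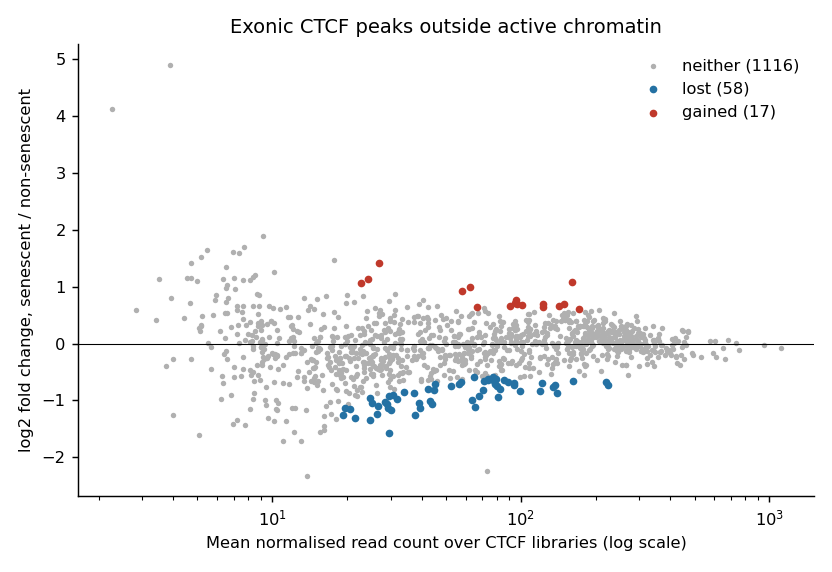
Each point is 1 of the 1191 exonic CTCF peaks, with its mean normalised read count over the CTCF libraries on a log axis and its deposited log2 fold change (senescent over non-senescent). The 58 lost peaks (blue) run from -1.58 to -0.59 and the 17 gained peaks (red) from 0.61 to 1.42, and few points above 164 mean counts are coloured.

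The 2 most extreme values in the plot of fold change against mean count were not called and fall outside the naming rule. They lay in the 3′ UTRs of FRMPD3 (log2 fold change 4.91, standard error 1.48) and COL11A2 (4.12, standard error 1.72), at mean counts of 3.86 and 2.26, and neither carried an adjusted p.

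Among the gained peaks, the smallest p belonged to CDC6, which encodes a licensing factor of DNA replication origins. The peak (chr17:40302257-40303934) lay in exon 12 of 12, with its centre in the 3′ UTR, had a mean count of 161, and was 2.12-fold higher in senescent cells (log2 fold change 1.08, standard error 0.18, adjusted p 1.57e-06 by the deposited Wald test). H3K27ac at the CDC6 promoter went the other way, with a log2 fold change of -1.50 (standard error 0.18, adjusted p 1.22e-14 by the deposited Wald test). The protein-coding start site nearest to the CTCF peak, at 5.25 kb, was that of RARA, a retinoic acid receptor, and not that of CDC6. Another CDC6 peak, in exon 11 (chr17:40301212-40301803), was not called (log2 fold change 0.07, standard error 0.43) at a mean count of 24.8.

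RFWD3, which encodes a ubiquitin ligase of the DNA damage response, showed the same pair of directions. Its 3′ UTR peak (chr16:74622793-74624095, exon 13 of 13) had a log2 fold change of 0.66 (standard error 0.18, adjusted p 0.019 by the deposited Wald test), while its promoter H3K27ac had one of -0.93 (standard error 0.11, adjusted p 3.33e-15). BMAL2, a clock transcription factor outside the naming rule and picked after its values were seen, was the remaining gained peak whose host promoter lost H3K27ac, at 0.66 for CTCF and -0.84 for H3K27ac.

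The other named gains had host promoters with no called H3K27ac change. LANCL2, which encodes a LanC-like protein, had a peak at chr7:55432678-55433895 with a log2 fold change of 0.69 (standard error 0.19, adjusted p 0.015 by the deposited Wald test). GALNT13, an enzyme that starts mucin-type O-glycosylation, rose by 1.00 on the log2 scale (standard error 0.28) at chr2:154452663-154453590. SLK, a STE20-like kinase, rose by 0.77 (standard error 0.22) at chr10:104027739-104028859. MGLL, the lipase that degrades monoacylglycerols, rose by 0.64 (standard error 0.20) at chr3:127690595-127691586. All 4 of these peaks had their centre in the 3′ UTR of the last exon. Among the named gains, those in coding exons were GOLIM4 and ST7. GOLIM4, a Golgi membrane protein, rose by 0.61 (standard error 0.18, exon 7 of 16). ST7, whose exon is shared with the overlapping gene ENSG00000288635, rose by 0.70 (standard error 0.21). The peaks at LANCL2, GALNT13, SLK and GOLIM4 held no motif match.

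Among the lost peaks, the smallest p belonged to SORBS3 (vinexin, an adaptor of cell adhesions), in the coding part of exon 21 of 21. It had a log2 fold change of -0.68 (standard error 0.15, adjusted p 0.00146 by the deposited Wald test) at a mean count of 219. ADAMTS10, a secreted metalloprotease, fell by 0.87 on the log2 scale (standard error 0.19, adjusted p 0.00163) at chr19:8580453-8581477. MUC3A, a membrane mucin, had the largest decrease of the 58, 2.98-fold, with a log2 fold change of -1.58 (standard error 0.39, adjusted p 0.00661) at a mean count of 29.4. Mucin genes hold repeated and copied sequence, so its read counts are less certain.

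EVX2, a homeobox gene beside the HOXD cluster, had a log2 fold change of -0.73 (standard error 0.18, adjusted p 0.00463 by the deposited Wald test) at chr2:176079452-176080859, at a mean count of 224. SKOR1, a corepressor, had -0.73 (standard error 0.19, chr15:67833529-67834645). PRDM13, a zinc-finger factor of neural development, had -1.13 (standard error 0.30, chr6:99613114-99613971). The promoters of EVX2, SKOR1, PRDM13, SORBS3, ADAMTS10 and MUC3A carried no H3K27ac peak.

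MYBL2, which encodes the cell-cycle transcription factor B-Myb, had an H3K27ac peak at its promoter. Its CTCF peak in exon 6 of 14 (chr20:43691785-43692543) had a log2 fold change of -0.83 (standard error 0.21, adjusted p 0.00795 by the deposited Wald test), and its promoter H3K27ac had one of -1.64 (standard error 0.38, adjusted p 0.000117).

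**Figure D2:**
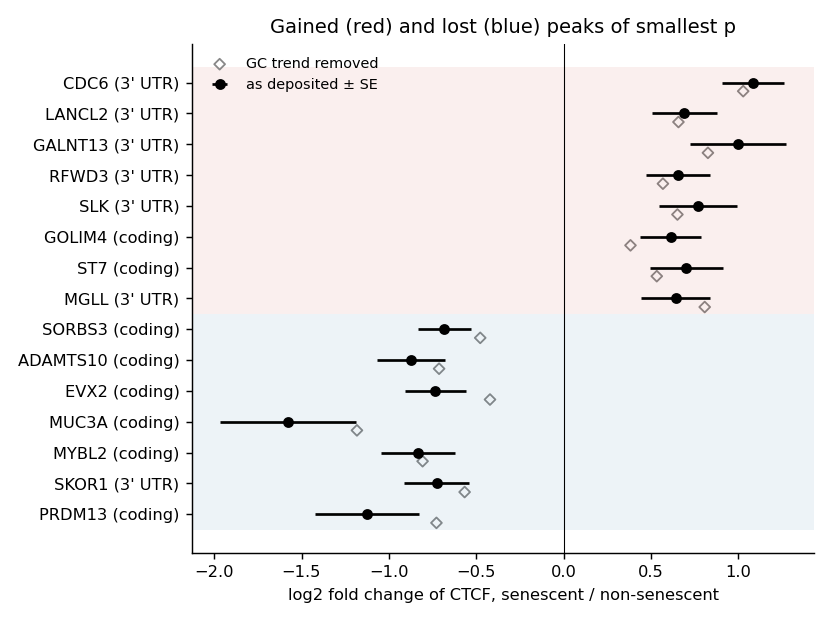
The 8 gained exonic CTCF peaks of smallest p and 7 lost ones, with the deposited log2 fold change as a point, its standard error as a bar, and the value after removal of the trend with GC content as an open diamond. Every diamond keeps the sign of its point, and those of PRDM13 and MUC3A move furthest toward 0, from -1.13 to -0.73 and from -1.58 to -1.18.

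CTCF change followed the GC content of the sequence in every class. In the lowest GC decile of all CTCF peaks (GC up to 35.2%) the exonic median log2 fold change was 0.26, and in the highest decile (from 63.5%) it was -0.32. The intronic medians at the same ends were 0.22 and -0.33, and the intergenic ones 0.21 and -0.34. At equal GC the exonic peaks thus lay close to the other classes. They differed in how many lay at high GC: the median GC was 49.9% in exons, 42.6% in introns and 43.4% between genes, and 333 of the 1191 fell in the highest 2 deciles. These 333 held 39 of the 58 losses and 1 of the 17 gains. The median GC was 61.0% for the lost and 38.9% for the gained peaks.

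**Figure D3:**
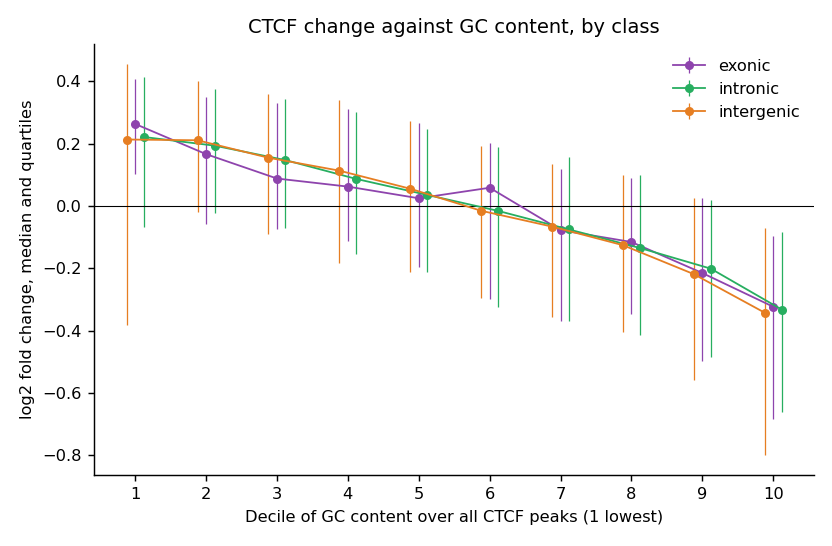
Median log2 fold change of CTCF with quartiles (bars) in each decile of GC content, for exonic, intronic and intergenic peaks outside active chromatin. The 3 lines fall together from above 0.2 in the lowest decile to below -0.3 in the highest.

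Within the highest decile, 23.5% of exonic peaks with an adjusted p were lost, beside 14.7% of intronic and 19.4% of intergenic peaks. With the median trend over GC subtracted from each peak and the p-values adjusted again over all CTCF peaks, 15 exonic peaks were lost in place of 58, and 19 were gained in place of 17. These were 1.26% lost and 1.60% gained of the 1191, beside 1.85% and 1.34% of all CTCF peaks, where losses still outnumbered gains with 954 against 688. Of the original exonic calls, 12 losses and 9 gains were retained. Among the peaks of smallest p named above, the calls of CDC6, LANCL2, GALNT13, SLK, MGLL, ADAMTS10, MUC3A and MYBL2 were retained. The fold change fell below 1.5 at RFWD3 (log2 fold change 0.57), SORBS3 (-0.48), SKOR1 (-0.57), GOLIM4 (0.38), ST7 (0.53) and EVX2 (-0.42). The adjusted p also rose above 0.2 at GOLIM4 (0.367), ST7 (0.225) and EVX2 (0.278). At PRDM13 only the adjusted p failed (0.265). Other lost peaks are named below from gene lists or at the 2 kb limit. Of these, CACNB1 and ZNF648 kept their calls. PMM1, HES7, SLC52A3, ADAMTS13, MYO7A, ZNF219 and KCNS1 did not, with adjusted p from 0.298 at PMM1 to 0.704 at KCNS1.

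Most of the exonic peaks had their centre in a last exon. The rule left out peaks within 2 kb of a start site, so few could lie in first exons or 5′ UTRs. The share of eligible exon sequence in each position was not measured. The centre fell in the last exon at 746 peaks, in an internal exon at 435, in the first at 4 and in a single-exon gene at 6. By part of the transcript, 625 lay in a 3′ UTR, 560 in coding sequence and 6 in a 5′ UTR. The host exon had a median length of 3400 bases for the 3′ UTR peaks, and 430 of these 625 peaks lay wholly within it. For coding peaks its median length was 197 bases, and 62 of 560 lay wholly within it.

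Coding and 3′ UTR peaks differed in their calls. Of 421 coding peaks with an adjusted p, 6 were gained and 41 were lost (9.74%). These losses included 6 in the TBC1D3 genes, near-identical copies described below. Of 497 in 3′ UTRs, 11 were gained and 16 were lost (3.22%). The median log2 fold changes were -0.081 and 0.019, with median standard errors of single peaks of 0.32 and 0.27. GC content moved with this split, at medians of 52.7% in coding and 47.2% in 3′ UTR peaks. Within the highest 2 GC deciles, 30 of 154 coding peaks (19.5%) and 9 of 78 in 3′ UTRs (11.5%) were lost. The 30 included the 6 TBC1D3 losses. With the GC trend removed the medians were -0.023 and 0.0093.

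The peaks differed also by the state of their host gene's promoter. Of the 1117 host genes, 742 (66.4%) had an H3K27ac peak within 2 kb of the canonical start site, near the 63.7% of all 20046 protein-coding genes. Among these, 24 promoters gained H3K27ac and 70 lost it (deposited adjusted p under 0.05 and fold above 1.5), that is 3.23% and 9.43%, beside 2.74% and 8.74% for all genes with a promoter peak. Where the host promoter had no H3K27ac, 35 of 320 CTCF peaks with an adjusted p (10.9%) were lost and 1 was gained. Where it had H3K27ac, 23 of 601 (3.83%) were lost and 16 were gained. The median GC was 54.6% in the first set and 46.5% in the second. Within the highest 2 GC deciles, 26 of 121 peaks (21.5%) were lost without and 13 of 111 (11.7%) with promoter H3K27ac. With both splits crossed, 27 of 163 peaks (16.6%) in coding exons of genes without promoter H3K27ac were lost and 0 gained, at a median GC of 60.2%. The share lost was 5.43% in coding exons of genes with promoter H3K27ac, and in 3′ UTRs it was 5.10% without and 2.35% with it. The 6 lost TBC1D3 peaks were among the 27, and so among the 35 without promoter H3K27ac. They were also among the 26 of the highest 2 GC deciles, and may not be independent sites.

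**Figure D4:**
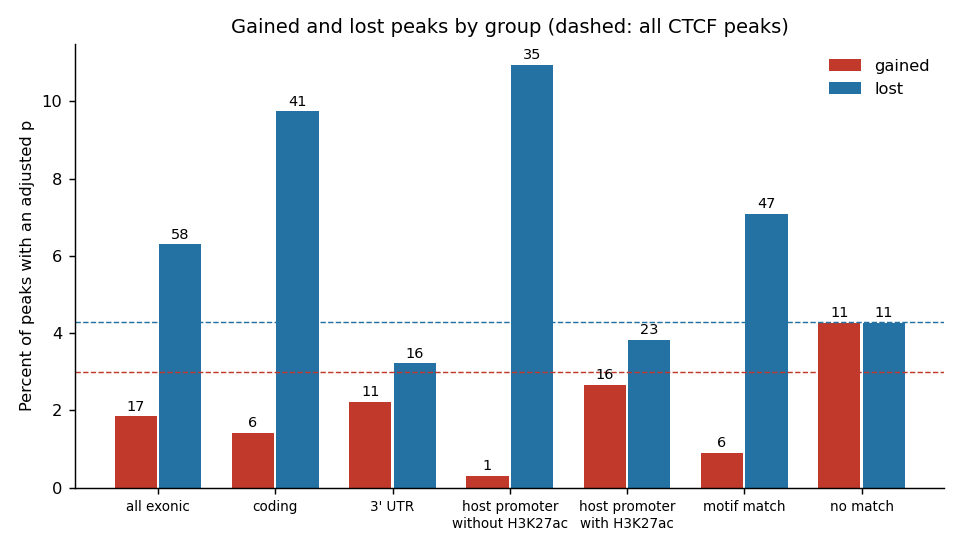
Percent of peaks with an adjusted p that were gained (red) or lost (blue), for all exonic peaks and for groups of them by exon part, host promoter H3K27ac and motif match, with the number of peaks above each bar and dashed lines at 2.99% and 4.28% for all CTCF peaks. The blue bars are highest for coding exons (9.74%) and for hosts without promoter H3K27ac (10.9%). Both bars include 6 losses in the TBC1D3 genes.

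CTCF calls went both ways where H3K27ac at the host promoter was lost. Of 57 peaks with an adjusted p in genes whose promoter lost H3K27ac, 3 were gained (5.26%) and 5 were lost (8.77%). Over all exonic peaks the shares were 1.85% and 6.30%, and over all CTCF peaks 2.99% and 4.28%. Counts this small do not set these hosts apart. Of 18 in genes whose promoter gained it, 0 were gained and 1, at the myosin gene MYO7A, was lost (-0.71 for CTCF, 0.66 for H3K27ac). Among the 39 called CTCF peaks with a promoter H3K27ac peak, the 2 fold changes had the same sign in 19. Over all 786 exonic peaks with a host promoter peak, their Spearman correlation was -0.056. CTCF sites were often nearer to another gene than to the start of their host: for 436 of 1191, the nearest protein-coding start site belonged to another gene. The median distance to a start site was 12.3 kb, beside 24.8 kb in introns and 61.1 kb between genes. The median distance to an H3K27ac peak was 13.9 kb, beside 18.1 kb and 31 kb, with a lower quartile of 5.12 kb for the exonic peaks. Some named peaks lay closer to one, such as SLK at 0.189 kb, ADAMTS13 at 0.275 kb and RFWD3 at 0.847 kb. At the 2 kb limit of the rule, the nearest peak inside was that of HES7 (2001 bases, log2 fold change -0.93, standard error 0.27) and the nearest exonic peak outside was that of FAM221B (2000 bases, 0.14, standard error 0.22).

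A CTCF motif was found in 773 of the 1191 peaks (64.9%), with a 19-base matrix learned from the 5000 strongest peaks outside this set and both strands searched. The share was 54.7% in introns, 55.6% between genes and 56.4% over all CTCF peaks. Regions of the same width shifted by 10 kb matched in 11.3% for the exonic peaks and 7.54% for all peaks. The best match lay within 100 bases of the peak centre in 542 of 773. It lay wholly inside the host exon in 619 of 773, with 370 of 387 for 3′ UTR and 246 of 383 for coding peaks. Peaks with a match were stronger than those without, at median mean counts of 83.7 and 25.8. They were also wider, at medians of 1017 and 572 bases.

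Gains and losses were split unevenly by the motif. Of 663 peaks with a match and an adjusted p, 6 were gained and 47 were lost (7.09%). Of 258 without a match, 11 were gained (4.26%) and 11 were lost (4.26%). Median GC was 52.2% and 44.2%. Within the lower 5 GC deciles, which held 15 of the 17 gains, 5 of 238 peaks with a match and 10 of 173 without were gained. In these deciles 2 peaks with a match (0.84%) and 5 without (2.89%) were lost, the reverse of the order over all exonic peaks. In the highest 2 deciles the losses were 35 of 201 with a match (17.4%) and 4 of 31 without (12.9%). In the highest decile alone they were 19 of 85 (22.4%) and 4 of 13 (30.8%). The 47 losses with a match, and the 35 of the highest 2 deciles, included the 6 TBC1D3 losses. In deciles 6 to 8 they were 10 of 224 with a match (4.46%) and 2 of 54 without (3.70%). The order of the 2 shares thus varied with GC, but several of these counts are too small to settle it.

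The share of losses was higher where the match held a CpG, in the exonic peaks as in the other classes. One was present in 403 of the 773 best matches (52.1%), beside 33.4% in introns and 40% between genes. With a CpG, 35 of 338 peaks with an adjusted p were lost (10.4%) and 1 was gained. Without one, 12 of 325 were lost (3.69%) and 5 were gained. The shares lost with and without a CpG were 4.45% and 2.28% in introns, and 6.38% and 3.09% between genes. The median GC of the exonic peaks was 56.6% with a CpG and 47.6% without. Their median log2 fold changes of -0.15 and 0.041 became -0.035 and 0.025 with the GC trend removed. DNA methylation was not measured here, and its part was not tested.

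Motif orientation was close to even between the strands of the host gene. The best match read along the gene in 382 peaks (49.4%) and against it in 391. Losses numbered 20 of 337 tested peaks in the sense and 27 of 326 in the antisense orientation, and 3 were gained in each.

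Within coding sequence the matches were not spread evenly over the reading frame. The best match of 244 peaks lay in coding sequence of the host, 105 in sense and 139 in antisense. In sense, the first base of the match fell on codon position 1 in 39, position 2 in 7 and position 3 in 59. In antisense, the base of the match nearest the gene's 5′ end fell on position 1 in 61, position 2 in 30 and position 3 in 48. All 10912 matches in canonical coding exons of the genome, bound or not, gave the same order in sense. Position 2 was the rarest with 14.1%, beside 6.67% in the peaks, and position 3 the most frequent with 53.3%, beside 56.2%. In antisense, position 1 led in both, with 42.6% in the genome and 43.9% in the peaks, but the order of the other two differed. Position 2 held 30.1% in the genome and 21.6% in the peaks, and position 3 held 27.4% and 34.5%. Near-identical gene copies enter these counts more than once. The matches in NBPF12 and NBPF1, described below, all lay in antisense at position 1 and may not be independent sites. Of these 10912 coding matches, 2408 (22.1%) lay in any CTCF peak and 354 in the exonic peaks described here.

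**Figure D5:**
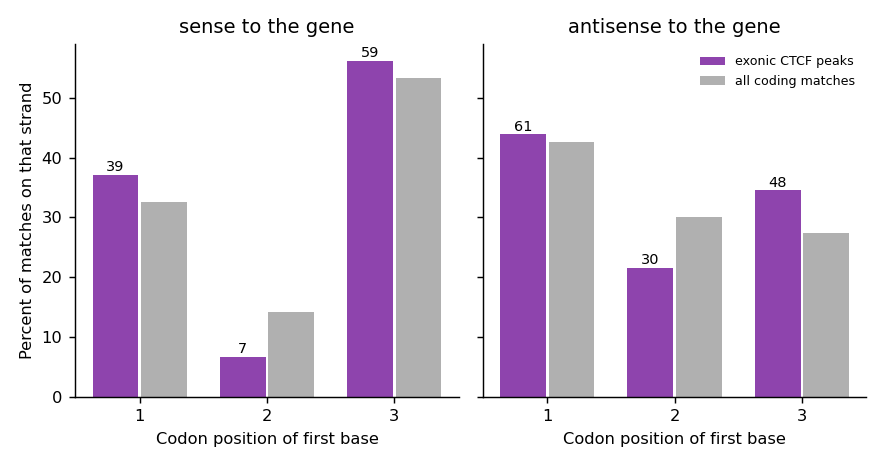
Codon position of the first base of the CTCF match, counted along the gene, as the percent of matches on that strand, for exonic peaks (purple, with counts) and for all matches in canonical coding exons (grey). Sense matches begin at position 2 in 7 of 105 peaks and at position 3 in 59.

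None of the 6 strongest exonic peaks was called. The highest mean count, 1114, was in the 3′ UTR of SLC45A3, a transporter gene known from prostate (log2 fold change -0.08, standard error 0.08). It was followed by CCM2L at 954 (-0.02, standard error 0.10), the kinase gene CDK18 at 757 (-0.11, standard error 0.10), SHE at 736 (0.01, standard error 0.10), RAB7B at 684 (0.06, standard error 0.10) and the matrix metalloprotease gene MMP9 at 664 (-0.28, standard error 0.10). MMP9 had a deposited adjusted p of 0.089 with a fold change of 1.21. CDK18, SLC45A3 and RAB7B lie in one stretch of chromosome 1, from 205527504 to 205978795. Promoter H3K27ac was present for CDK18 only, where it fell by 2.30 (standard error 0.62) at a mean count of 13.6.

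Most host genes held 1 peak, and 70 held more. NBPF12, NBPF1, RNF213 and RBMS2 held 3 each. In NBPF12 the log2 fold changes were -0.91, -0.40 and -0.26, in NBPF1 -0.08, -0.08 and 0.15, in the ubiquitin ligase gene RNF213 0.02, -0.24 and -0.65, and in RBMS2 -0.05, 0.66 and -0.33, none of them called. The NBPF genes and the TBC1D3 genes are families of near-identical copies, between which short reads cannot always be placed. The TBC1D3 family, which lies in clustered copies on chromosome 17, held 11 peaks in 11 genes, and 6 of the 58 lost peaks were among them, at log2 fold changes from -0.99 to -0.22 over the 11. These 6 may not be independent sites, and without both families 52 losses and 17 gains were left.

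Gene groups held few called peaks. Over all groups, 5.58% of protein-coding genes were hosts, and the median over all CTCF peaks was -0.012. Of all exonic peaks with an adjusted p, 1.85% were gained and 6.30% lost, so few calls are expected in lists this small. Of the study's cell-cycle list of 92 genes, 4 were hosts of 5 peaks, all with an adjusted p. CDC6 was gained and none lost, at a median log2 fold change of 0.067. The E2F target list had 15 peaks in 14 genes, 12 with an adjusted p, with MYBL2 lost and none gained, at a median of -0.017. The p53 pathway list had 8 peaks, 6 with an adjusted p, with 1 lost, at PMM1, a phosphomannomutase gene (-0.70, standard error 0.22). The PMM1 call was not retained with the GC trend removed. Beta cell maturity (2 peaks), insulin secretion (12 peaks), interferon-stimulated genes (20 peaks) and SASP, the senescence-associated secretory genes (5 peaks), had none gained or lost, with medians of -0.18, -0.14, -0.11 and -0.28. Only 1, 8, 16 and 5 of these peaks had an adjusted p and could be called. These lists are the ones the study applied to the same cells, and they are not independent evidence of direction.

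Called peaks in gene families were few, and all of them were losses, which also outnumbered gains over the whole set (6.30% of exonic and 4.28% of all CTCF peaks with an adjusted p). Potassium, calcium, sodium and TRP channel genes held 12 peaks, 8 with an adjusted p, with a median of -0.38, of which CACNB1, a calcium channel beta subunit (-0.94, standard error 0.25), and KCNS1, a potassium channel subunit (-0.63, standard error 0.26), were lost, at a median GC of 63.6%. ADAMTS protease genes held 5 peaks in 4 of 19 genes, 4 with an adjusted p, with ADAMTS10 and ADAMTS13, the protease of von Willebrand factor (-0.80, standard error 0.28), lost. Zinc-finger genes held 16 peaks, 13 with an adjusted p, with ZNF219 (-0.80, standard error 0.32) and ZNF648 (-0.90, standard error 0.38) lost. Solute carrier genes held 23 peaks, all with an adjusted p, with SLC52A3, a riboflavin transporter, lost (-0.68, standard error 0.23). Myosin genes held 5 peaks, 4 with an adjusted p, with MYO7A lost, and mucin genes 2, both with an adjusted p, with MUC3A lost. With 1 or 2 losses a family, these counts are too small to set a family apart from the other exonic peaks. With the GC trend removed, the calls of KCNS1, ADAMTS13, ZNF219, SLC52A3 and MYO7A were not retained. Other cadherin genes (4 peaks), collagen (2), axonemal dynein (2) and HOX genes (1) had no call, and clustered protocadherin and laminin genes held 0 peaks.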

How the data were processed

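The libraries were trimmed with Trim Galore, aligned to hg38 with Bowtie2 and peak-called by the authors with MACS2 (CTCF) or HOMER (H3K27ac) against input. The deposited tables hold, per peak, the mean normalised read count (a signal from counts divided by DESeq2 size factors), the log2 fold change with its standard error, the Wald statistic (a score) and the p-value with its Benjamini-Hochberg adjusted p-value, all as fitted by the authors with DESeq2 on 3 libraries per state. Tool versions are not given in the sources used here. No count per library was in the tables used here, so the test designed for counts was not run and the authors' deposited fold changes and p-values are the base of every call. Size factors set the level to which changes are relative. The study's methods state that CTCF peaks were filtered for a motif, whereas 56.4% of all peaks in the table matched the matrix used here, so the filter may differ. Enhancer and Rb region lists were deposited as coordinates. No column of per-sample values was left unused.

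Peaks were classified with GENCODE 44 by their centre, taking starts as counted from 0 and overlaps of at least 1 base. Start sites were those of protein-coding transcripts. A 19-base CTCF matrix was learned from the central 200 bases of the 5000 strongest peaks outside the exonic set, and a match was called at a p of 1.0e-05 per position (stricter 1.0e-06). The GC trend was the median log2 fold change of all CTCF peaks in 50 bins of GC content. Analyses used Python 3.11.15, numpy 2.4.6, pandas 2.3.3, statsmodels 0.14.6, pysam 0.24.0 and scipy 1.17.1, and the calls, adjustment, overlaps and matrix were tested on simulated data. The members, gene lists and tests were chosen with earlier results of these data known. Genes named were the 8 gained and 8 lost peaks of smallest p, the 6 of highest mean count, host genes with 3 or more peaks, up to 4 called members of each gene list by smallest p and the peaks nearest the 2 kb limit. Of the 8 losses, 1 is not reported here. Genes outside this rule are marked in the text. Alternatives changed the thresholds, the filter on mean count, the GC trend, the motif requirement and the definition of exonic.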

Additional observations from a re-analysis of the deposited data

How the results depend on the processing

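The direction of the balance, more losses than gains, held at an adjusted p under 0.05 (9 gained, 15 lost), at a fold above 2 (4 gained, 19 lost), among peaks with a motif match (6 gained), in coding sequence (6 gained) and at a mean count of at least 50 (31 lost), and it turned with the GC trend removed (15 lost, 19 gained). The Wald test against a fold of 1.5 on the deposited values gave 0 gained and 0 lost after adjustment, with 5 and 10 at an unadjusted p under 0.05. With p-values adjusted over all CTCF peaks, more than 5 kb from start sites, in exons of any transcript, or without TBC1D3 and NBPF genes (an alternative chosen after seeing the data), both counts stayed within 1.5 times those reported. The median log2 fold change ranged from -0.081 in coding sequence to 0.027 at 50 counts or more. A motif was found in 33.7% under the stricter match threshold and in 46.2% within the 200 bp around the centre, 100 bp to each side. The share of matches on the gene strand was 45.4% in coding sequence.

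No paired analysis was possible because the tables hold no value per library, and the fits without each replicate were not run for the same reason. Of the 298 peaks with mean counts up to 20.7, 270 carried no adjusted p and could not be called, which limits what these data show at weak sites.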
